A study of Oreochromis niloticus with 12 samples.

Results

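The genes cyp19a1a and hsd17b1 encode the enzymes that close oestradiol synthesis in the gonad. They were chosen by their names in the deposited expression table, where each name belonged to 1 gene, so they are 2 of 22283 genes. RNA had been sequenced from gonads of Nile tilapia (Oreochromis niloticus), with 3 libraries each of control testis, SF1-suppressed testis, control ovary and SF1-suppressed ovary. The control tissue was described as that of sexual maturity. The suppressed tissue was described only as taken after SF1 gene suppression, with no stage named. SF1, the product of nr5a1, is a nuclear receptor that switches on genes for making steroids. Eggs had received antisense RNA fragments against SF1 before fertilisation. The fragments were named Anti-SF1-1-I and, for the same number, Anti-SF1-1-II, with Anti-SF1-2-I and its partner Anti-SF1-2-II as the other pair. Control eggs had received ultrapure water or a blank plasmid in the same transfection reagent. The labels do not say which construct or which of these controls a library came from, nor whether a library is 1 fish or a pool. The p-values therefore measure only the spread between these libraries, which may be technical. The fish spent 30 days in a small water system within a culture of 150 days.

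Aromatase, the product of cyp19a1a, turns androgens into oestrogens by making the first ring of the steroid aromatic. In humans, HSD17B1 then reduces the weak oestrogen oestrone to oestradiol. Both enzymes act in granulosa cells, the somatic cells that surround the growing oocyte, and feed on androgens made with star, the side-chain cleavage enzyme, hsd3b1 and the CYP17 enzymes. In tilapia, oestradiol made in the early gonad is needed for ovary development, and the ovarian aromatase gene is known to be activated by foxl2 together with SF1.

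The gene cyp19a1a (ENSONIG00000000155) lay on the plus strand of scaffold GL831420.1, from base 347059 to base 350035, with 1 transcript. The gene hsd17b1 (ENSONIG00000001194) lay on the plus strand of scaffold GL831149.1, from base 2597295 to base 2601271, with 2 transcripts. The genome build is not given in the sources used here, and the scaffold names are those of the table. No other gene of the table overlapped either of them. The nearest neighbour of hsd17b1, si:ch73-141c7.1, began 484 bases downstream on the same strand. Both genes carried the term steroid hormone biosynthesis in the table.

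Library totals ran from 36.8 to 60.5 M counts. Most listed Sertoli cell and oocyte markers fitted the tissue labels. The testis gene dmrt1 averaged 268 FPKM (fragments per length of transcript, scaled to the library) in control testis and 1.04 in control ovary. Of 7 Sertoli cell markers 6 were higher and 1, clu, lower in control testis (243 against 510 FPKM in control ovary). Summed, 6 oocyte markers reached at most 71.8 FPKM in any testis library and at least 1861 in any ovary library. Of these 5 were lower in control testis by the test and 1, figla, was higher (41.3 against 21.1 FPKM). The listed granulosa cell markers were not ovary markers as a set. Of 11 tested, 6 were higher and 4 lower in control testis. Their sums ran from 830 to 888 FPKM in control testis and from 96.7 to 156 in control ovary. Of all genes tested there, 44.1% were higher and 42.3% lower. The targeted gene nr5a1 went against its label in part. In testis it stood at 9.26, 11.8 and 17.9 FPKM in control libraries and at 23.7, 24.3 and 6.34 in libraries with the suppressed label. In ovary nr5a1 stood at 1.37, 1.95 and 2.80 FPKM in control and at 1.35, 2.95 and 1.73 in SF1-suppressed libraries. Neither difference passed the test (log2 change 0.58, adjusted p = 0.415 in testis; 0.04, adjusted p = 0.935 in ovary). Without suppressed testis replicate 3, nr5a1 was higher in the testis libraries labelled SF1-suppressed (log2 change 0.97, adjusted p = 0.00613). In the other 12 of 13 alternative testis fits nr5a1 did not pass, with log2 changes down to 0.30. All directions below compare the labels and do not rest on a measured loss of SF1.

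Both genes were ovary genes in this series. In control ovary cyp19a1a stood at 67.8, 90.2 and 104 FPKM (5982, 8319 and 10616 counts). In control testis it stood at 0.616, 1.08 and 0.900 FPKM (42, 99 and 60 counts). The level was 101 times higher in control ovary by group means (87.3 ± 18.2 against 0.865 ± 0.232 FPKM, SD, n = 3), and the groups did not overlap, as for 39.8% of all genes tested in that direction. The gene hsd17b1 stood at 43.6, 69.7 and 59.6 FPKM in control ovary (4145, 6925 and 6552 counts). In control testis it had 10, 0 and 4 counts, and 0 of 51.2 M counts in replicate 2 allows up to 0.0586 CPM (counts per M counts) by counting error alone. Its mean was 57.6 ± 13.1 FPKM in control ovary and 0.0607 ± 0.0647 in control testis. In testis hsd17b1 was thus read at the edge of detection, and ratios to it rest on few counts.

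The difference between control testis and control ovary was -6.80 on the log2 scale for cyp19a1a (SE 0.23, adjusted p = 4.84e-09) and -10.09 for hsd17b1 (SE 0.42, adjusted p = 1.86e-08). Of the 14719 genes tested there, 86.3% passed the test, with 44.1% higher and 42.3% lower in testis. By size, 174 genes had a larger ovary excess than cyp19a1a. A gene entered a comparison with at least 1 FPKM in at least 3 libraries. In control testis cyp19a1a reached 1 FPKM only in replicate 2, so it needed ovary libraries to enter here. The gene hsd17b1 passed that filter on low values only through ovary, so it had to differ here. Its difference rests on 14 testis counts and ran from -9.08 without control testis replicate 2 to -11.06 without control testis replicate 1, and was -5.76 with limma on log2(FPKM + 1). Under the SF1-suppressed label the gap was narrower by value. It was -5.48 (SE 0.32, adjusted p = 2.38e-06) for cyp19a1a and -6.90 (SE 0.35, adjusted p = 1.30e-06) for hsd17b1, where 81.1% of 14189 genes passed and 39.9% were lower in testis. There too both genes needed ovary libraries to pass the filter. Group means put cyp19a1a 40.9 times and hsd17b1 110.1 times higher in suppressed ovary than in suppressed testis.

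**Figure D1:**
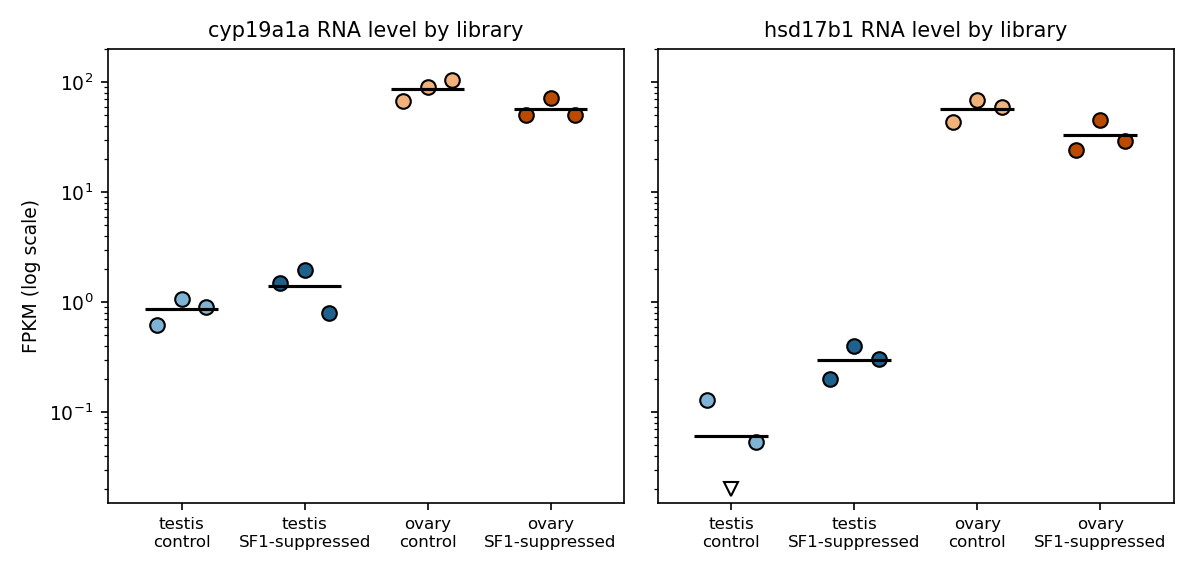
FPKM of cyp19a1a (left) and hsd17b1 (right) in each of the 12 libraries on a log axis, with 1 point per library and a bar at the mean of each group of 3. The open triangle marks control testis replicate 2, where hsd17b1 had 0 counts, and is drawn at an arbitrary height. Ovary libraries lie between 24.3 and 104 FPKM and testis libraries at or below 1.96.

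In ovary both genes had lower levels under the suppressed label. The gene cyp19a1a stood at 50.7, 72.2 and 50.5 FPKM in suppressed ovary, against 67.8, 90.2 and 104 in control ovary. Suppressed replicate 2 lay above control replicate 1, so the groups overlapped. The mean dropped by 33.8%, from 87.3 ± 18.2 to 57.8 ± 12.5 FPKM (log2 change -0.53, SE 0.16, adjusted p = 0.0317). A two-sided exact permutation test on its FPKM gave p = 0.2, and 3 against 3 libraries cannot give less than 0.1. The gene hsd17b1 stood at 24.3, 45.2 and 29.5 FPKM in suppressed ovary, against 43.6, 69.7 and 59.6 in control ovary. Here too suppressed replicate 2 lay above control replicate 1. The mean dropped by 42.7%, from 57.6 ± 13.1 to 33.0 ± 10.9 FPKM (log2 change -0.74, SE 0.22, adjusted p = 0.0248), and its exact permutation test also gave p = 0.2.

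These are 2 of 2 genes lower, in a comparison in which 17.9% of 12557 genes tested were lower and 35.9% passed in either direction. Under scaling by total count the calls of that comparison split into 1699 higher and 3014 lower, in place of 2268 and 2242. Neither call held with DESeq2 (adjusted p = 0.0729 for cyp19a1a and 0.0604 for hsd17b1) or with limma on log2(FPKM + 0.1) (0.0742 and 0.0629), and that of cyp19a1a did not hold with limma on log2(FPKM + 1) (0.0539). The call of cyp19a1a was lost without control replicate 2 (adjusted p = 0.0687), control replicate 3 (0.119), suppressed replicate 1 (0.120) or suppressed replicate 3 (0.116). That of hsd17b1 was lost without the same libraries (0.0774, 0.0683, 0.0875 and 0.0848). The direction was the same in each of these fits, with log2 changes from -0.70 to -0.39 for cyp19a1a and from -1.01 to -0.55 for hsd17b1.

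**Figure D2:**
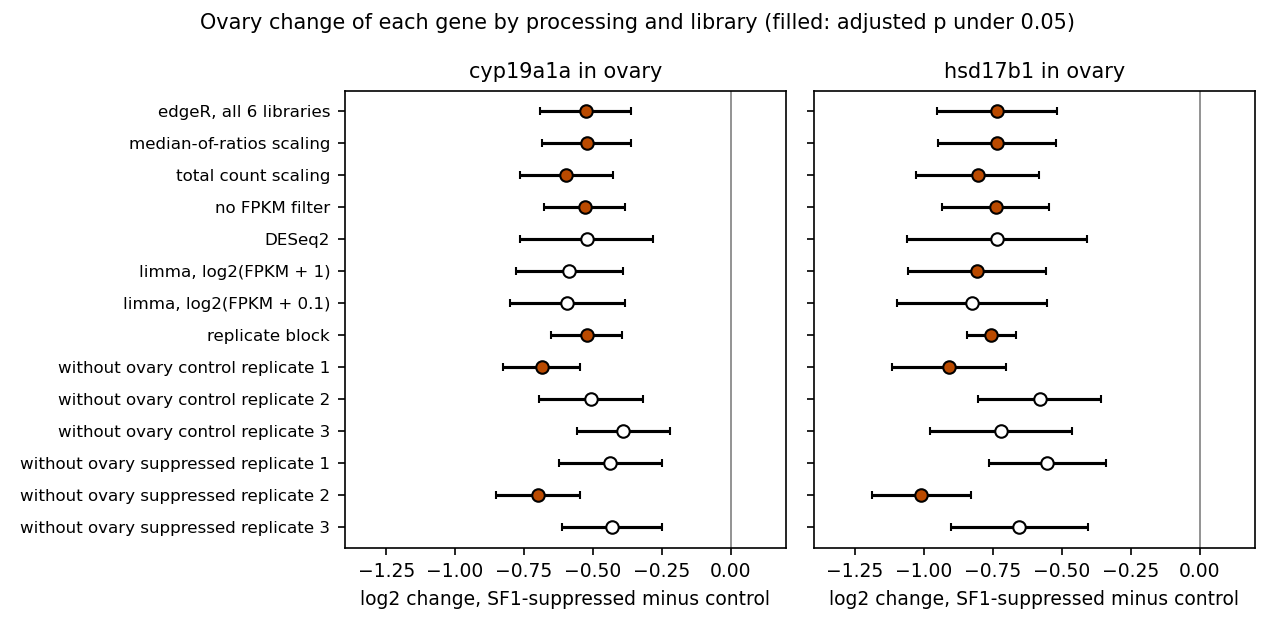
Log2 change of cyp19a1a (left) and hsd17b1 (right) in ovary, SF1-suppressed minus control, for each tool, scaling, filter and left-out library. Points are estimates and bars are standard errors, and filled points have an adjusted p under 0.05. All estimates lie below 0, and of 13 alternatives 6 are filled for cyp19a1a and 7 for hsd17b1.

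In testis the values went the other way, from a very low level. The gene cyp19a1a stood at 1.49, 1.96 and 0.794 FPKM (150, 169 and 68 counts) in suppressed testis, against 0.616, 1.08 and 0.900 in control testis. Suppressed replicates 1 and 2 lay above all control libraries, and suppressed replicate 3 lay among them. Its log2 change was 0.79 (SE 0.39) and did not pass (adjusted p = 0.217), nor did that without suppressed replicate 3 (1.05, adjusted p = 0.0512). The 13 alternative fits gave 0.35 to 1.05. The exact permutation test gave p = 0.3. The gene hsd17b1 had 22, 37 and 28 counts (0.199, 0.398 and 0.303 FPKM) in suppressed testis, against 10, 0 and 4 counts in control testis. The groups did not overlap, as for 10.8% of 20606 genes in the same direction when no filter on FPKM was applied. Below that filter of at least 1 FPKM in at least 3 libraries, hsd17b1 was fitted with all genes that had a count. Its log2 change was 2.34 (SE 1.27) and did not pass (adjusted p = 0.293). The exact permutation test gave p = 0.1, the smallest it can. Without control testis replicate 1 the log2 change was 3.59, and with limma on log2(FPKM + 1) it was 0.29, past the test in neither. In testis 10.9% of 14368 genes above the filter passed, with 5.68% lower and 5.25% higher, or 3.74% of the 20606 without a filter. Under scaling by total count the testis calls split into 554 higher and 1183 lower, in place of 755 and 816.

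Some markers of other cell types also differed between the testis labels. Of 6 theca and Leydig cell markers, the cells that make androgens, star, hsd3b1 and hsd11b2 rose and 3 did not pass (median 1.21), where 5.25% of all genes tested rose. Their sums ran from 792 to 1283 FPKM in control and from 743 to 2265 in suppressed testis. Of 7 Sertoli cell markers sox9a rose, clu, cldn11a and tjp1b fell and 3 did not pass (median -0.58), where 10.9% of all genes passed in either direction, with sums of 1363 to 1461 FPKM in control and 959 to 1909 in suppressed testis. Of 8 granulosa cell markers tested in testis 0 passed by edgeR (median 0.01). The 6 skeletal muscle markers summed to between 7.80 and 12.3 FPKM in control and between 21.9 and 145 in suppressed testis. Most of this was acta1a, at 6.38 ± 2.45 FPKM in control and 76.9 ± 61.7 in suppressed testis. Of 3 tested, acta1a and pvalb4 rose and 1 did not pass. Means of ckma (0.954 to 0.661 FPKM) and tnnt3a (0.619 to 0.272 FPKM) were lower in suppressed testis. The 2 exocrine pancreas markers summed to between 30.0 and 43.3 FPKM in control and between 6.47 and 13.9 in suppressed testis. The part of these differences in the testis values of cyp19a1a and hsd17b1 was not tested.

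By the main fit, the label differences of the 2 tissues differed from each other. The testis change minus the ovary change (the interaction) was 1.28 on the log2 scale for cyp19a1a (SE 0.38, adjusted p = 0.0382) and 3.14 for hsd17b1 (SE 0.74, adjusted p = 0.0134). Among 15382 genes, 7.33% passed with a testis change above the ovary change, 8.15% with one below it and 15.5% in either direction. In this fit hsd17b1 met the FPKM filter only through ovary. The fit also used a spread shared by both tissues. Fitted by tissue, hsd17b1 had an SE of 1.27 in testis, without the filter, and 0.22 in ovary. The interaction call thus leans on the ovary libraries for the spread of its testis side. The value of hsd17b1 passed in 19 of 19 alternative fits (adjusted p up to 0.0389), although its testis side rests on 0 to 37 counts a library. Its size moved from 1.10 with limma on log2(FPKM + 1) to 4.45 without control testis replicate 1. That of cyp19a1a passed in 8 of 19, and failed, among others, with limma (adjusted p = 0.0508 and 0.0989) and with library totals as the scale (0.0561). It was also lost without testis control replicate 1 (0.0785) or 3 (0.0775), suppressed testis replicate 1 (0.0512) or 2 (0.0751), control ovary replicate 2 (0.0739) or 3 (0.0806), or suppressed ovary replicate 1 (0.0840) or 3 (0.0837).

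The order of the group means was the same for both genes: control ovary, suppressed ovary, suppressed testis, control testis. For cyp19a1a the ranges of the 2 ovary groups overlapped, as did those of the 2 testis groups. For hsd17b1 the ovary ranges overlapped and the testis ranges did not. The ratio of hsd17b1 to cyp19a1a FPKM was 0.643, 0.773 and 0.573 in control ovary and 0.478, 0.626 and 0.585 in suppressed ovary. The log2 ratio was -0.60 ± 0.22 in control and -0.84 ± 0.20 in suppressed ovary, a difference of -0.23 (SD, n = 3; exact permutation p = 0.3). The libraries overlapped, so a different size of change in the 2 genes was not detectable with 3 libraries a group. In the testis libraries where hsd17b1 had counts, the ratio ran from 0.0590 to 0.382.

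On the log2(FPKM + 1) scale the 2 genes were each other's closest match over the 12 libraries. That scale flattens levels below 1 FPKM, where the testis values of both genes mostly lie. On it the control gonads differed by -5.55 for cyp19a1a and -5.76 for hsd17b1, against -6.80 and -10.09 by edgeR on the counts. Among 13554 further genes with a symbol and at least 1 FPKM in 3 of the 12 libraries, the centred profile of log2(FPKM + 1) nearest to that of cyp19a1a was hsd17b1, and the reverse. The root mean square difference was 0.24 log2 units over the 12 libraries, which differ mostly by tissue. Next to cyp19a1a came arrdc1a (0.31), si:ch211-166a6.5 (0.32), igf2bp3, an RNA-binding protein gene (0.32), and tgfa, a growth factor gene (0.33). Next to hsd17b1 came tgfa (0.32), arrdc1a (0.37), zgc:158263 (0.38) and bhlhe23, a transcription factor gene (0.39). Within the 6 ovary libraries many other genes lay closer. There hsd17b1 ranked 328 by closeness to cyp19a1a, and cyp19a1a ranked 46 by closeness to hsd17b1, at a difference of 0.20. The 5 closest to cyp19a1a in ovary were hs3st1l2, rnd1a, a copy of LRP8, lamb2l and spsb3b (0.06 to 0.09). The scale also shrinks changes at a few FPKM, as for hs3st1l2 (means 2.75 and 1.38 FPKM) and the LRP8 copy (1.41 and 0.564 FPKM, not tested in ovary). By edgeR hs3st1l2 changed by -0.92, and rnd1a, lamb2l and spsb3b by -0.56, -0.53 and -0.52, against -0.53 for cyp19a1a. The 5 closest to hsd17b1 were slc37a2, clu (the chaperone clusterin), zgc:91890, nkain4 and pparg, a nuclear receptor gene (0.10 to 0.15). Their edgeR changes were, in that order, -1.22, -0.57, -0.91, -1.11 and -1.23, against -0.74 for hsd17b1.

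The earlier steps of the route had the opposite tissue pattern. Of 9 route genes listed, 6 were in the table under those names. In control gonads star, cyp11a2, hsd3b1 and cyp17a2 were higher in testis, with log2 differences of 6.13, 4.14, 2.89 and 5.64, and only the 2 oestradiol enzymes were lower there. In ovary 2 of 6 route genes were lower past the test, cyp19a1a and hsd17b1, beside 17.9% of all genes tested (median of the 6 -0.35; median of all genes tested 0.00). The others had values of -0.35 (star, which carries cholesterol into mitochondria; adjusted p = 0.272), -0.33 (the side-chain cleavage enzyme cyp11a2; 0.297), -0.34 (the hydroxylase cyp17a2; 0.315) and -0.03 (hsd3b1, which makes progesterone and androstenedione; 0.948). In testis 2 of 5 tested route genes were higher, beside 5.25% of all genes tested (median of the 5 0.91). The gene star averaged 255 ± 53.0 FPKM in control and 698 ± 314 in suppressed testis (log2 change 1.55, adjusted p = 0.0232), and hsd3b1 averaged 122 ± 16.6 and 324 ± 129 (1.51, adjusted p = 0.0135). The values of cyp11a2 and cyp17a2 there were 0.91 (adjusted p = 0.156) and -0.91 (adjusted p = 0.447). Suppressed testis replicate 3 was far below the other libraries of its group for both. There cyp17a2 stood at 239, 282 and 19.3 FPKM in suppressed testis, against 259, 311 and 501 in control testis, and cyp11a2 at 426, 452 and 136, against 155, 180 and 241.

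Leaving out control replicate 1, 2 or 3 or suppressed replicate 2 ended both testis calls (adjusted p from 0.0562 to 0.131), and leaving out suppressed replicate 1 ended that of star (0.0622). Limma also ended that of star (0.0687 on log2(FPKM + 1) and 0.0940 on log2(FPKM + 0.1)) and, on log2(FPKM + 0.1), that of hsd3b1 (0.0637). Without suppressed replicate 3 that of star had an adjusted p of 5.47e-06. The interaction of star was 1.87 (adjusted p = 0.0127) and that of hsd3b1 1.50 (0.0307). So 4 of 6 route genes, both oestradiol enzymes among them, had a testis change above their ovary change by the test, beside 7.33% of all genes. Among the 4, hsd17b1 met the FPKM filter only through ovary. The interaction of star passed in 19 of 19 alternative fits, that of hsd3b1 in 12 of 19 and, as above, that of cyp19a1a in 8 of 19. A further CYP17 gene, named cyp17 in the table and so outside the list, was examined after its values were seen. It stood at 9.88 ± 1.73 FPKM in control ovary and 9.79 ± 4.97 in suppressed ovary (log2 change 0.05, adjusted p = 0.904).

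**Figure D3:**
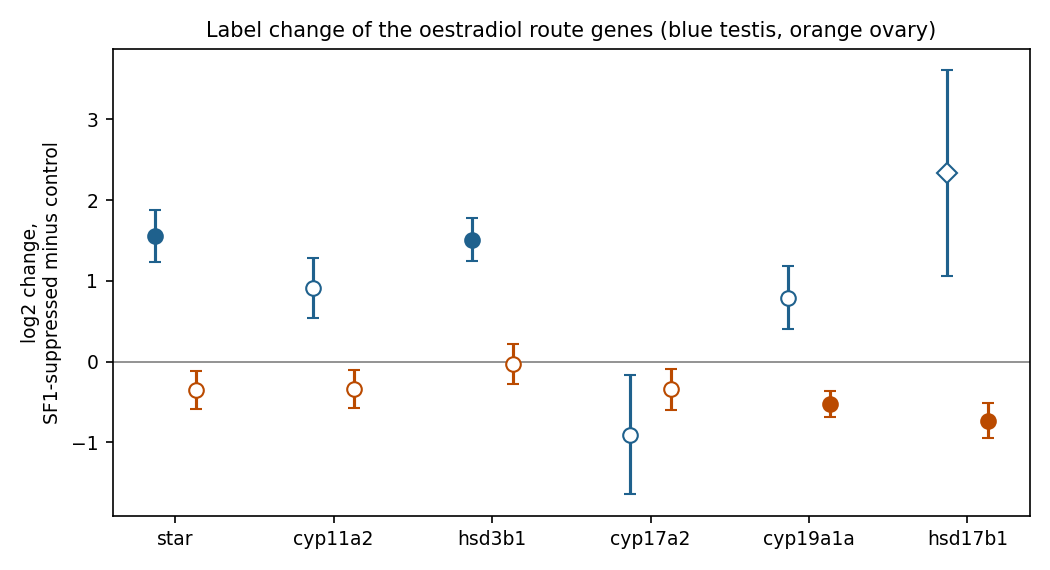
Log2 change, SF1-suppressed minus control, of the 6 oestradiol route genes in the table, in order of their step, for testis (blue) and ovary (orange). Bars are standard errors, filled points have an adjusted p under 0.05, and the diamond marks hsd17b1 in testis, fitted without the FPKM filter. In testis 5 of the 6 genes, all but cyp17a2, are above 0, and in ovary all 6 are below 0, with only cyp19a1a and hsd17b1 filled.

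Some other enzymes of the 17-beta-hydroxysteroid dehydrogenase family were lower as well in suppressed ovary. Of 14 symbols listed, 10 genes were in the table and 9 were tested in ovary. Of these 4 fell, hsd17b1 included, 1 rose and 4 did not pass (median -0.16), where 17.9% of all genes tested fell and 18.1% rose. The gene hsd17b12a, whose human relative elongates fatty acids, stood at 28.5, 26.8 and 27.3 FPKM in control and 14.5, 17.0 and 12.6 in suppressed ovary. These groups did not overlap, as for 31.5% of the genes tested in that direction (log2 change -0.83, SE 0.11, adjusted p = 0.000278). A copy of hsd17b7, an enzyme of cholesterol synthesis in mammals, fell from 14.5 ± 0.419 to 9.36 ± 0.881 FPKM (ENSONIG00000018594, log2 change -0.57, adjusted p = 0.00224). The gene hsd17b14 fell from 15.8 ± 1.77 to 10.2 ± 0.550 FPKM (log2 change -0.56, adjusted p = 0.00944). The peroxisomal hsd17b4, of fatty acid oxidation, rose from 25.4 ± 2.77 to 33.9 ± 0.0820 FPKM (log2 change 0.49, adjusted p = 0.00069). These 4 calls passed in 13 of 13 alternative fits each. The androgen-making hsd17b3 stood at 0.934 ± 0.424 and 1.14 ± 0.240 FPKM (adjusted p = 0.503). In testis 0 of 8 tested family members passed by edgeR (median 0.08), where 10.9% of all genes tested passed in either direction. The other copy of hsd17b7 (ENSONIG00000002597) came nearest, with a testis log2 change of 2.16 (SE 0.599, adjusted p = 0.0571). Its FPKM ran from 0.0930 to 0.561 in control and from 1.29 to 2.15 in suppressed testis. These groups did not overlap, as for 39.0% of all genes tested there in either direction.

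A gene named as a copy of CYP19A1 (ENSONIG00000008307, scaffold GL831160.1) was also examined after its values were seen, since no cyp19a1b was listed under that name. In ovary it stood at 1.24, 4.55 and 1.92 FPKM in control and at 5.38, 1.49 and 2.70 in suppressed libraries. The groups overlapped and the difference did not pass (log2 change 0.38, SE 0.53, adjusted p = 0.607). Its level in control ovary, 2.57 ± 1.75 FPKM, lay below that of cyp19a1a in every library. In testis it averaged 0.115 ± 0.0451 FPKM in control and 0.419 ± 0.252 in suppressed libraries.

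Of 6 oestrogen and progestin receptor symbols listed, 3 were in the table and 2 were tested. The oestrogen receptor esr2a fell in ovary, from 25.5, 25.7 and 24.8 to 18.9, 19.7 and 18.7 FPKM (log2 change -0.34, SE 0.05, adjusted p = 0.000832), and in 13 of 13 alternative fits. Of all genes tested in ovary 17.9% fell. Its groups did not overlap, as for 31.5% of the genes tested in that direction. The second, esr2b, was a testis gene here. It stood at 1.04 ± 0.116 and 0.953 ± 0.465 FPKM in ovary (adjusted p = 0.905) and at 10.4 ± 3.58 and 4.90 ± 2.93 in testis (log2 change -0.99, adjusted p = 0.205). The membrane receptor gper1 was listed at 0 in all ovary libraries.

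Of 21 listed regulators of aromatase or of gonadal sex, 13 rows were in the table and 8 were tested in ovary, where 3 rose, 0 fell and 5 did not pass (median 0.09), beside 18.1% of all genes that rose. The activator foxl2 stood at 7.73, 13.2 and 16.6 FPKM in control and at 9.71, 12.96 and 11.3 in suppressed ovary (log2 change -0.08, SE 0.24, adjusted p = 0.839). The library with the highest cyp19a1a of each ovary group, control replicate 3 and suppressed replicate 2, was also the one with the highest foxl2 and nr5a1 of its group. Those libraries were also the highest for star, cyp11a2 and cyp17a2, so this was not particular to foxl2 and nr5a1. They were not both the highest for amh, esr2a or hsd17b12a. The control library with the lowest cyp19a1a, replicate 1, was likewise lowest in hsd17b1, foxl2 and nr5a1. In suppressed ovary cyp19a1a was lowest in replicate 3, by a small margin, and the other 3 genes in replicate 1. The highest hsd17b1 was in replicate 2 of both groups. The testis factor dmrt1, known in tilapia to repress aromatase, rose from 1.04 ± 0.269 to 3.25 ± 0.0654 FPKM (log2 change 1.71, adjusted p = 0.00106). The gene amh, for anti-Müllerian hormone, rose from 7.52 ± 0.843 to 11.2 ± 0.927 FPKM (log2 change 0.65, adjusted p = 0.00336). Both rises passed in 13 of 13 alternative fits each. In testis 1 of 9 tested, sox9a, passed (2.61 ± 0.136 to 10.4 ± 1.53 FPKM, log2 change 2.11, adjusted p = 0.000353), beside 10.9% of all genes tested there.

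**Figure D4:**
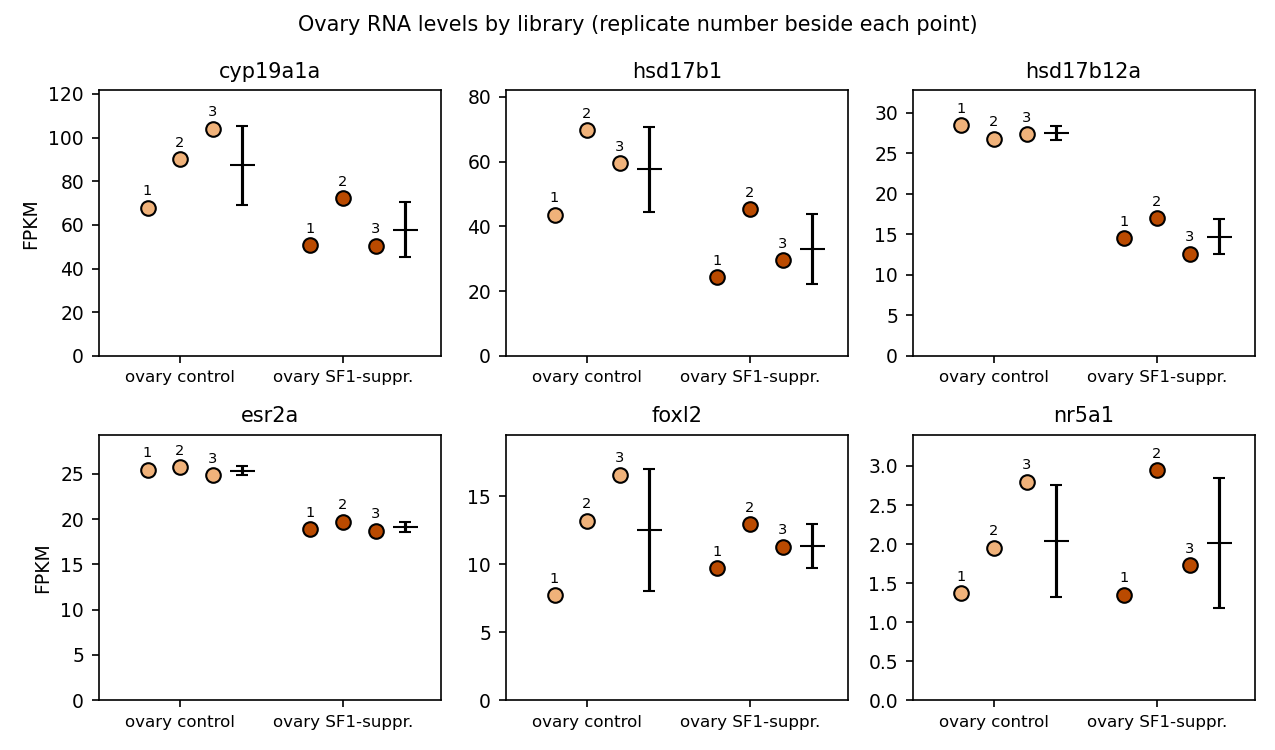
Ovary FPKM of both oestradiol enzymes, the family member hsd17b12a, the receptor esr2a and the regulators foxl2 and nr5a1, with 1 point per library, its replicate number above it, and the mean and SD (n = 3) beside each group. The groups are apart for hsd17b12a and esr2a and overlap for the other 4 genes.

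Some cell type markers differed between the ovary labels. In bulk tissue, fewer cells of a type and less RNA per cell cannot be told apart. Some genes stood in several lists, so their calls are counted again. The gene amh was listed as a granulosa marker, a Sertoli marker and a regulator, and dmrt1 and sox9a as Sertoli markers and regulators. The route genes star, hsd3b1, cyp11a2 and cyp17a2 were also theca and Leydig cell markers. Of 18 granulosa cell markers listed, 13 rows were in the table and 9 were tested in ovary. Of these inhbaa and amh rose, rspo1 and wnt4a fell and 5 did not pass (median -0.32), a share of calls near the 35.9% of all genes. Their summed level ran from 96.7 to 156 FPKM in control and from 102 to 126 in suppressed ovary. Among them wnt4b was listed at 0 in all control ovary libraries. Of 6 tested oocyte markers 4 rose and 0 fell, where 18.1% of all genes rose, with sums of 1861 to 1991 FPKM in control and 2282 to 2307 in suppressed ovary. Of 6 theca and Leydig cell markers 1 fell, cyp11c1, and 5 did not pass, with sums of 44.5 to 57.4 and 27.1 to 46.9 FPKM, where 17.9% of all genes fell. Of 6 Sertoli cell markers tested in ovary dmrt1 and amh rose, cldn11a fell (log2 change -1.43, adjusted p = 0.00252) and 3 did not pass, gsdf among them (0.14, adjusted p = 0.455). Their sums ran from 420 to 637 FPKM in control and from 292 to 506 in suppressed ovary. Most of each sum was clu, at 510 ± 115 FPKM in control and 328 ± 111 in suppressed ovary, which did not pass (log2 change -0.57, adjusted p = 0.0679).

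Some markers of other organs differed more. The 6 liver markers in the table summed to between 154 and 364 FPKM in control ovary and between 8.97 and 12.7 in suppressed ovary, mostly apoa1a, with ambp listed at 0 in all 6 libraries. The 6 skeletal muscle markers summed to between 2.34 and 3.04 FPKM in control and between 16.2 and 31.9 in suppressed ovary. Among them pvalb4 was listed at 0 in all 6 libraries. Most of the rise was acta1a, at 21.3 ± 8.45 FPKM in suppressed ovary (log2 change 4.31, adjusted p = 2.80e-05). The only other one tested, ckma, did not pass (log2 change -0.61, adjusted p = 0.101). Its mean was lower in suppressed ovary (0.941 FPKM) than in control (1.51 FPKM). The part of these differences in the values of cyp19a1a and hsd17b1 was not tested.

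Within 50 kb of cyp19a1a lay 4 genes, of which 2 were tested in ovary and in testis, and 0 passed by edgeR in either. The nearer, dmxl2, was higher in control testis than in control ovary (18.8 against 3.33 FPKM), the reverse of cyp19a1a. The other, scg3, was higher in control ovary (log2 difference -2.35, adjusted p = 0.00014), as cyp19a1a was. Within 50 kb of hsd17b1 lay 6 genes, of which 4 were lower and 1 higher in control testis than in control ovary. Of all genes tested there, 42.3% were lower and 44.1% higher. In ovary 5 of them were tested, with 2 lower and 0 higher under the suppressed label, a share of calls near the 35.9% of all genes. The nearest, si:ch73-141c7.1, was an ovary gene as well, at 95.5 FPKM in control and 91.1 in suppressed ovary (log2 change 0.00, adjusted p = 0.991). It stood at 3.54 FPKM in control testis and 5.24 in suppressed testis (log2 change 0.69, adjusted p = 0.0526). Its interaction was 0.65 (adjusted p = 0.0320). By that test 2 of 6 neighbours of hsd17b1 had a testis change above the ovary change, beside 7.33% of all genes. The neighbour ENSONIG00000001203 had the same directions as hsd17b1 between the control gonads and in ovary, but not in testis. Its testis mean was 1.92 FPKM in control and 1.41 under the suppressed label (log2 change -0.34, adjusted p = 0.341). It averaged 17.4 FPKM in control ovary, 7.46 in suppressed ovary (log2 change -1.15, adjusted p = 2.40e-06) and 1.92 in control testis, with an interaction of 0.78 (adjusted p = 0.0213). The further gene that was lower in suppressed ovary was zgc:153952 (log2 change -0.81, adjusted p = 0.0322). In testis 6 neighbours of hsd17b1 were tested, with 0 higher and 1 lower under the suppressed label. The lower gene was again zgc:153952 (log2 change -1.63, adjusted p = 0.0292), where 5.68% of all genes tested were lower.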

How the data were processed

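Per the file headers, counts and FPKM of 12 libraries stood side by side in 1 deposited table of 22283 Ensembl genes. The counts were taken as the authors' expected counts (estimated read counts, whole numbers), and the FPKM were computed by the authors. The submitters' processing notes name HISAT and StringTie. The sources used here do not give the build, the annotation or the strand setting. A gene entered a comparison when 3 or more of its libraries had at least 1 FPKM. The quasi-likelihood test of edgeR 4.0.16 was then run in R 4.3.3 with TMM scaling, and Benjamini-Hochberg adjustment over all genes entered, at a threshold of 0.05. Each comparison was fitted on its own 6 libraries and the interaction on all 12. SE values were derived from F. DESeq2 1.42.0, limma 3.58.1, other scalings, no filter, a replicate block and fits without each library were run beside it. FPKM and ratios were compared by exact two-sided permutation tests (scipy 1.17.1). The edgeR test was checked on simulated counts for testis and for ovary. Changes were set there only in well-counted genes, so that check does not cover hsd17b1 in testis. The members, gene lists and tests were chosen with earlier results of these data known. Symbols were matched without regard to case, and genes sharing a symbol are called copies, whose reads are less certain. The genes named were both enzymes, nr5a1, list members past the test and the 5 closest profiles. Other list members, markers and neighbours were named after their values were seen. Fits of hsd17b1 in testis without the filter were added after seeing the data. No sequence was used here. For 1 member of the list of regulators, counted with its list, values are not reported here.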

Additional observations from a re-analysis of the deposited data

Results flagged for a closer look

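The label change of cyp19a1a differed between the tissues by a test of the difference itself: testis minus ovary was 1.28 on the log2 scale (edgeR interaction, adjusted p = 0.0382), with 0.79 in testis and -0.53 in ovary. The label change of hsd17b1 differed between the tissues by the same test, by 3.14 (adjusted p = 0.0134), with 2.34 in testis, from 0 to 37 counts a library, and -0.74 in ovary. The call of cyp19a1a held in 8 of 19 alternative fits. In the interaction fit hsd17b1 met the FPKM filter only through ovary. That fit used a spread shared by both tissues (SE 0.74 for hsd17b1, against 1.27 in testis alone). Its testis change, fitted without that filter, did not pass on its own (edgeR adjusted p = 0.293). No group had the 4 libraries that a test for single outlying libraries needs.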

How the results depend on the processing

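Of 220 recomputed values of the 16 comparisons set out for the 2 genes and their background, 189 were unchanged by the rule for their kind. A further 24 kept their direction and lost the call, and 7 counts of calls moved by over 1.5 times. Unchanged meant the same direction and side of the threshold for a test. For a count of calls it meant within 1.5 times, and for the ratio of the 2 genes the same direction only. The cause was not tested. In ovary, cyp19a1a was no longer past the test with DESeq2 (log2 change -0.52), limma on log2(FPKM + 1) (-0.59) and limma on log2(FPKM + 0.1) (-0.59), and ran from -0.70 to -0.39 without each library in turn. In ovary, hsd17b1 was no longer past it with DESeq2 (-0.73) and limma on log2(FPKM + 0.1) (-0.83), and ran from -1.01 to -0.55 without each library. The interaction of cyp19a1a was lost under scaling by total count (1.28), limma on log2(FPKM + 1) (0.94) and limma on log2(FPKM + 0.1) (1.19), and ran from 1.08 to 1.55 without each library. The testis count of 1571 called genes became 2890 with DESeq2, 276 with the replicate block, and 312 (without control replicate 2) to 2790 (without suppressed replicate 3) without each library. It was 447 without control replicate 1, 427 without control replicate 3 and 611 without suppressed replicate 2. The replicate block changed no call of either enzyme (ovary -0.52 and -0.76, adjusted p = 0.0193 and 0.000556). Same-numbered libraries correlated at -0.38 to 0.11 in their deviations from group means. With 3 libraries a group, such deviations cannot tell whether same-numbered libraries were paired. The block lost the testis calls of star (adjusted p = 0.136) and hsd3b1 (0.0924). In ovary, nr5a1, at 0.04, took the other sign under scaling by total count (-0.025), limma (-0.023 and -0.037), without control replicate 1 (-0.18) and without suppressed replicate 2 (-0.32), past the test in none. It ran from -0.32 to 0.33 without each library. Scaling by total count moved the median of all genes to -0.12 in testis, 0.24 between control gonads and 0.16 between suppressed gonads. Where a left-out library put a gene below the FPKM filter, the genes of the full fit were kept, a choice made after seeing the data. Depth limits hsd17b1 in testis, at 14 counts over the 3 control libraries.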

Other observations

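The table gave 60 genes the term steroid hormone biosynthesis, which holds both enzymes. In ovary 31 of them were tested, of which 4 were higher, 11 lower and 16 not past the test (median -0.03), where 18.1% of all genes were higher and 17.9% lower. In testis 31 were tested, of which 5 were higher, 2 lower and 24 not past it (median 0.12), where 5.25% of all genes were higher and 5.68% lower. In the interaction 41 were tested, and 10 had a testis change above the ovary change while 2 had one below it, where the shares of all genes were 7.33% and 8.15%.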
